A study of Mus musculus with 19 samples.

Results

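The MYC-MAX-MXD network is a set of transcription factors that share a basic helix-loop-helix leucine-zipper fold and compete for the same DNA sequence and, in large part, for the same partner. Its 10 members, MYC, MYCN, MAX, MXD1, MXD3, MXD4, MXI1, MNT, MLX and MGA, were taken by symbol from the deposited expression table. They are 10 of 19486 named genes. In 9 of them the value reached 1 in at least 3 libraries, as it did for 13253 of all genes, and these were tested. MYCN did not reach it and is described by its values alone. Symbols are given in mouse style from here on.

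RNA was sequenced from 19 mouse liver tumours that the labels call hepatocellular carcinoma, in 5 groups named by the labels. MYC_Twist1_OFF, MYC_Recur and MYC_OFF hold 3 libraries each, and MYC_Twist1_HCC and MYC_HCC hold 5 each. MYC stands in the name of every group, Twist1 in the names of MYC_Twist1_OFF and MYC_Twist1_HCC. The labels give no strain, age, transgene promoter, treatment or time point, so that OFF and Recur are known by name only, and it is not stated whether the Myc values include reads of a transgene. The 10 libraries of the groups ending in HCC were re-analysed from an earlier deposit and the other 9 were new, so that deposit and group cannot be told apart where MYC_Twist1_OFF, MYC_OFF or MYC_Recur is set against a group ending in HCC.

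MYC proteins bind the E-box CACGTG as a dimer with MAX, recruit histone acetyltransferases and chromatin remodellers, and raise transcription of genes for ribosomes, nucleotides and growth. The MXD proteins and MNT pair with the same MAX, bind the same E-box and recruit SIN3 and histone deacetylases, so they lower transcription of many of the same genes. MGA, a very large protein that also pairs with MAX, works inside a Polycomb complex, and MLX pairs with the glucose-sensing factors MondoA (Mlxip) and ChREBP (Mlxipl). In the liver, MYC is low at rest and rises in regeneration and cancer.

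The E-box is shown in the promoters of network members because it is the sequence through which the members act. Of 32851 RefSeq promoter windows on GRCm38.p6, which run from 250 bases before to 50 bases after a transcript start, 2349 (7.15%) held CACGTG, a palindrome that reads alike on both strands. The table matched 9 members with 11 windows, and 4 of these windows (36.4%) held it once each, those of Max, Mlx, Mnt and Mxd4. Myc itself had no window there, so its promoter was not searched. A match of letters is a description and not a binding site. The stretches run 5′ to 3′ on the gene's own strand with the E-box in capitals. In Max, at chr12:76962246-76962281 on the minus strand, the E-box spans the RefSeq transcript start. The GENCODE gene given with the values below starts further downstream, so that by GENCODE this E-box lies upstream of the gene. The distances of the other 3 are also from the RefSeq start. In Mlx, at chr11:101087220-101087285 on the plus strand, it lies 40 to 35 bases upstream of the start. In Mnt, at chr11:74830771-74830836 on the plus strand, it lies 123 to 118 bases upstream, and in Mxd4, at chr5:34187894-34187959 on the minus strand, 219 to 214 bases upstream.
Max: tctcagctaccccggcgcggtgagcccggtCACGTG
Mlx: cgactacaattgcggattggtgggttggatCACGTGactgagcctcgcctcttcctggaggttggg
Mnt: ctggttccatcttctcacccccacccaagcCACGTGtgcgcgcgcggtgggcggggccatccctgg
Mxd4: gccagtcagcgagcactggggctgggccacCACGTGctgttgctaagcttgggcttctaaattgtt

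The 4 genes with an E-box in the window did not change in 1 direction. In the MYC_OFF tumours Max and Mxd4 fell and Mnt rose, relative to MYC_HCC, and Mlx did not pass the test. 

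In tumours labelled OFF, Myc, its partner Max and the repressors Mxd3 and Mxd4 were lower than in the matching group ending in HCC, while the repressors Mxd1 and Mnt were higher. Of the 9 members tested, 4 were called higher and 4 lower in MYC_OFF against MYC_HCC (limma, Benjamini-Hochberg adjusted p under 0.05), where 18.9% of all tested genes were called higher and 39.4% lower. In MYC_Twist1_OFF against MYC_Twist1_HCC, 2 members were called higher and 4 lower, beside 13.1% of all genes higher and 33.5% lower. In MYC_Recur against MYC_OFF, 4 were called higher and 3 lower, beside 37.5% and 12.0% of all genes. With so many genes called, the number of members called is read against these shares and does not by itself set the network apart.

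Changes were not centred on 0 over all genes. The median log2 fold change of all tested genes was -0.38 in MYC_OFF against MYC_HCC, -0.32 in MYC_Twist1_OFF against MYC_Twist1_HCC and 0.45 in MYC_Recur against MYC_OFF, against 0.41, 0.27 and 0.16 over the 9 members. When libraries were rescaled by the median of ratios, the share of calls that were higher became 52.0% in place of 32.5% for MYC_OFF against MYC_HCC, 50.8% in place of 28.0% for MYC_Twist1_OFF against MYC_Twist1_HCC, and 47.9% in place of 75.8% for MYC_Recur against MYC_OFF. No called member changed direction under any of the 4 rescalings. In each OFF library, 21.0% to 28.8% of all signal came from its 10 top genes, against at most 12.7% in any other library.

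Summed hepatocyte markers moved with these groups. The summed values of the 11 markers in the table, all of which passed the filter, ranged from 1504 to 1608 in MYC_Twist1_OFF, 5325 to 7006 in MYC_Recur, 1484 to 2164 in MYC_OFF, 3951 to 6049 in MYC_Twist1_HCC and 6816 to 13114 in MYC_HCC, and no marker was at 0 in a whole group. Of the 11, 0 were called higher and 8 lower in MYC_OFF against MYC_HCC, 0 and 6 in MYC_Twist1_OFF against MYC_Twist1_HCC, and 7 and 0 in MYC_Recur against MYC_OFF. The lower calls stood beside 39.4% and 33.5% of all genes, and the 7 higher calls beside 37.5%. Marker calls are on the values as deposited, without rescaling. Hnf4a did not follow the sums. It averaged 84.6 in MYC_Twist1_OFF, 62.4 in MYC_Recur, 77.85 in MYC_OFF, 83.0 in MYC_Twist1_HCC and 102 in MYC_HCC. Nor did Tat, at 4.89, 4.39, 4.97, 4.52 and 13.8 in the same order. Summed markers of endothelial cells, 5 of 8 of which passed the filter, ranged from 65.7 to 114 in MYC_Twist1_OFF, 5.17 to 10.8 in MYC_Recur, 32.5 to 88.9 in MYC_OFF, 9.4 to 21.0 in MYC_Twist1_HCC and 11.2 to 83.0 in MYC_HCC, with 1 marker, Lyve1, at 0 throughout MYC_Recur. These sums were mostly Pecam1, which averaged 75.6 in MYC_Twist1_OFF, 3.41 in MYC_Recur, 53.0 in MYC_OFF, 6.78 in MYC_Twist1_HCC and 9.47 in MYC_HCC. Cdh5 ran the other way, at 0.987 in MYC_Twist1_OFF, 1.3 in MYC_Recur, 1.74 in MYC_OFF, 4.24 in MYC_Twist1_HCC and 12.45 in MYC_HCC. Of the 5 endothelial markers tested, 2 were called higher and 2 lower in MYC_OFF against MYC_HCC, 2 and 1 in MYC_Twist1_OFF against MYC_Twist1_HCC, and 1 and 2 in MYC_Recur against MYC_OFF. Markers of other cell types were also counted in MYC_OFF against MYC_HCC. Of 8 macrophage markers 2 were called higher and 1 lower, and of 7 T and NK markers 3 and 0. The counts were 1 and 0 of 2 for B and plasma cells and 1 and 1 of 4 for neutrophils. They were 1 and 2 of 9 for stellate cells and 1 and 1 of 3 for erythroid cells. In bulk tissue fewer cells of a type and less RNA per cell cannot be told apart, and the part of cell make-up in the results on the network was not tested.

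**Figure D1:**
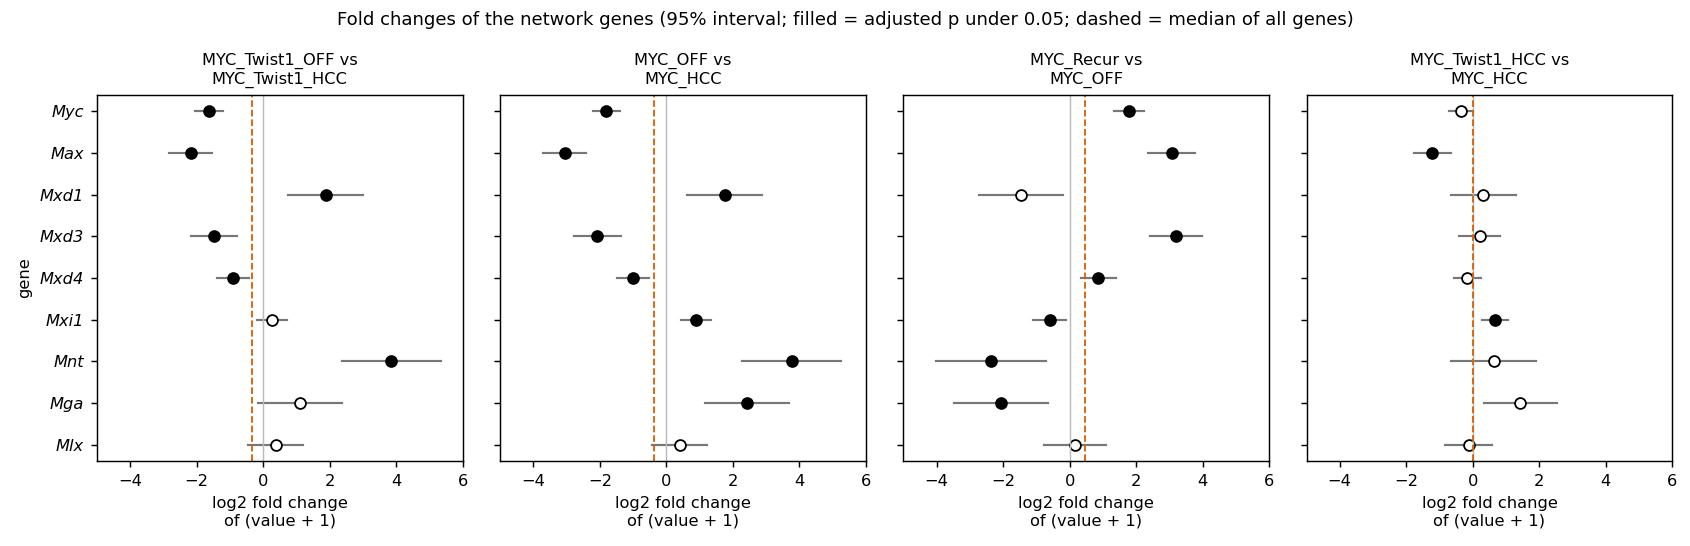
Log2 fold changes of (value + 1) for the 9 tested members in 4 comparisons. Points are limma estimates with 95% intervals, filled where the adjusted p was under 0.05, and the dashed line is the median of all tested genes. Myc, Max, Mxd3 and Mxd4 lie left of 0 and Mxd1 and Mnt right of 0 in both comparisons of an OFF group with a group ending in HCC, and the signs are turned in MYC_Recur against MYC_OFF.

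Myc (GRCm38 chromosome 15, 61985391 to 61990374, plus strand), the oncogene that the groups are named for, read 32.55, 40.9 and 45.7 in MYC_Twist1_OFF, 159, 156 and 152 in MYC_Recur, 59.8, 33.9 and 43.4 in MYC_OFF, 116, 120.0, 134, 153 and 102 in MYC_Twist1_HCC, and 158, 180.5, 165, 129 and 166 in MYC_HCC. All 6 OFF libraries lay below all 13 others. The log2 fold change was -1.81 ± 0.20 (SE) in MYC_OFF against MYC_HCC (limma adjusted p = 7.25e-07) and -1.63 ± 0.20 in MYC_Twist1_OFF against MYC_Twist1_HCC (limma adjusted p = 6.48e-06). Myc was detected in every OFF library, at 45.7 ± 13.1 in MYC_OFF and 159.5 ± 19.2 in MYC_HCC (SD, n = 3 and 5).

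In MYC_Recur, Myc was back in the range of MYC_HCC. It averaged 156 ± 3.14 in MYC_Recur and 45.7 ± 13.1 in MYC_OFF (SD, n = 3 each), a log2 fold change of 1.78 ± 0.22 (limma adjusted p = 5.59e-06). Against MYC_HCC the log2 fold change was -0.03, with a 95% interval from -0.44 to 0.38. Between MYC_Twist1_HCC and MYC_HCC the ranges overlapped, and Myc missed the threshold (-0.35 ± 0.17, limma adjusted p = 0.207). The spread among MYC_Recur libraries was 2.02% of their mean, against 28.7% in MYC_OFF.

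Max (chromosome 12, 76937269 to 76962201, minus strand), the shared partner without which neither MYC nor the MXD proteins bind DNA well, had larger log2 fold changes than Myc. It read 5, 2.02 and 6.16 in MYC_Twist1_OFF, 49.55, 33.55 and 86.9 in MYC_Recur, 4.43, 6.44 and 5.41 in MYC_OFF, 22.2, 16.9, 26.95, 25.3 and 19.7 in MYC_Twist1_HCC, and 49.3, 57.2, 74.5, 39.5 and 46.6 in MYC_HCC. The order of the groups was MYC_Recur with MYC_HCC, then MYC_Twist1_HCC, then both OFF groups, and none of these 3 steps overlapped. Max fell in MYC_OFF against MYC_HCC by 3.06 ± 0.30 on the log2 scale (limma adjusted p = 3.52e-07), where it was 254th from the bottom of 13253 genes, and it rose by 3.07 ± 0.34 in MYC_Recur against MYC_OFF (limma adjusted p = 2.59e-06), 222nd from the top.

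Max was lower in MYC_Twist1_HCC than in MYC_HCC. In MYC_Twist1_HCC it averaged 22.2 ± 4.06, against 53.4 ± 13.4 in MYC_HCC (SD, n = 5 each), a log2 fold change of -1.22 ± 0.26 (limma adjusted p = 0.0113), with the 5 MYC_Twist1_HCC libraries all below the 5 MYC_HCC libraries. In MYC_Twist1_OFF against MYC_Twist1_HCC, Max fell by 2.18 ± 0.30 (limma adjusted p = 2.45e-05). The difference between the 2 OFF contrasts was 0.88 ± 0.43 and was not called (limma interaction, adjusted p = 0.650). Twist1 itself was at most 0.27 in any library and at most 0.12 in libraries labelled Twist1, so every direction between Twist1-labelled and other groups rests on the labels.

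**Figure D2:**
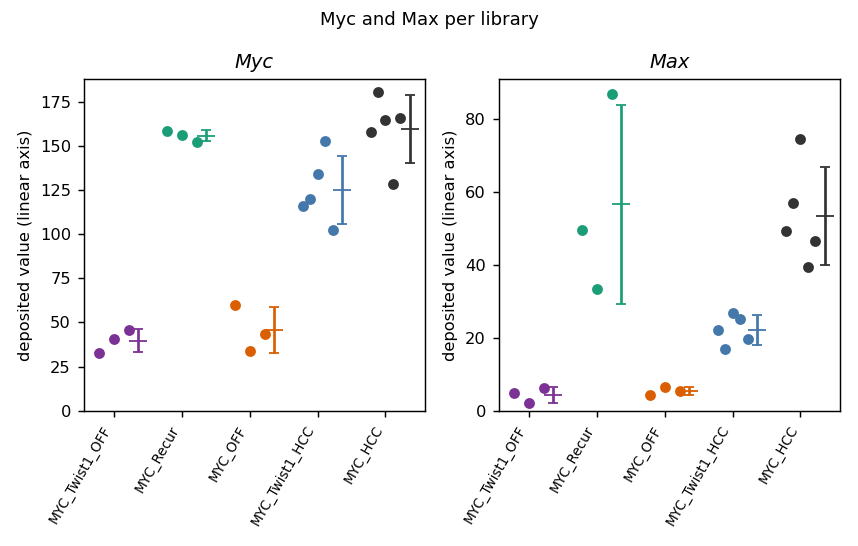
Deposited values of Myc and Max per library on linear axes, by group. Points are libraries, and the bar beside them is the mean with its SD. Myc reaches at most 59.8 in the OFF groups and is at least 102 in the others. Max reaches at most 6.44 in the OFF groups, lies between 16.9 and 26.95 in MYC_Twist1_HCC and is at least 33.55 in MYC_Recur and MYC_HCC.

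Mycn (chromosome 12, 12936093 to 12941914, minus strand), the paralog active in embryonic and neural tissue, was near 0 throughout. It read 0.52, 0.35 and 0.32 in MYC_Twist1_OFF, 0.13, 0.08 and 0.01 in MYC_Recur, 0.43, 0.23 and 0.07 in MYC_OFF, 0.02 to 0.10 in MYC_Twist1_HCC and 0.03 to 0.20 in MYC_HCC. The highest values stood in OFF libraries, and none reached 1. No fold change is given at this level, since the depth behind the values is unknown.

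The 4 MXD-family repressors did not move together. Mxd1 (chromosome 6, 86647042 to 86669161, minus strand), classically induced when cells leave the cycle and differentiate, read 17.9, 12.25 and 5.15 in MYC_Twist1_OFF, 1.74, 4.99 and 0.76 in MYC_Recur, 23.9, 5.99 and 2.54 in MYC_OFF, 3.07, 0.56, 1.49, 3.52 and 3.23 in MYC_Twist1_HCC, and 0.89, 1.73, 2.04, 1.97 and 1.2 in MYC_HCC. The OFF libraries lay above the matching libraries ending in HCC, with MYC_OFF 1 and MYC_Twist1_OFF 1 the highest of all 19. Mxd1 rose in MYC_OFF against MYC_HCC by 1.75 ± 0.54 (log2, limma adjusted p = 0.00976) and in MYC_Twist1_OFF against MYC_Twist1_HCC by 1.88 ± 0.54 (limma adjusted p = 0.00859). Both calls rested on the highest library: without MYC_OFF 1 the first was 0.98 (limma adjusted p = 0.112), and without MYC_Twist1_OFF 1 the second was 1.53 (limma adjusted p = 0.0617).

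Mxd1 in MYC_Recur overlapped MYC_OFF and just missed the threshold (-1.47 ± 0.60, limma adjusted p = 0.0504). It passed under all 4 rescalings, from -1.51 to -1.99. Without MYC_OFF 1 it was -0.70 (limma adjusted p = 0.318).

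Mxd3 (chromosome 13, 55325168 to 55329823, minus strand), the MXD member known for expression in proliferating cells in S phase, followed Myc rather than Mxd1. It read 16.2, 17.7 and 23.4 in MYC_Twist1_OFF, 83.6, 101 and 129 in MYC_Recur, 12.9, 6.39 and 13.1 in MYC_OFF, 45.7, 55.1, 82.9, 60 and 37.0 in MYC_Twist1_HCC, and 55.95, 89.9, 45.2, 26.9 and 36.5 in MYC_HCC. The 3 MYC_Recur libraries were 3 of the 4 highest of all, and all 6 OFF libraries lay below all others. Mxd3 fell by 2.08 ± 0.33 in MYC_OFF against MYC_HCC (log2, limma adjusted p = 4.46e-05) and by 1.47 ± 0.33 in MYC_Twist1_OFF against MYC_Twist1_HCC (limma adjusted p = 0.00165).

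Mxd3 rose by 3.20 ± 0.37 in MYC_Recur against MYC_OFF (log2, limma adjusted p = 3.92e-06), 175th from the top of 13253 genes. It was the 1 member called in MYC_Recur against MYC_HCC, higher by 1.12 ± 0.33 (limma adjusted p = 0.0382), where 6.90% of all genes were called higher and 3.93% lower. The ranges overlapped, since MYC_HCC 2 read 89.9, and the call was lost under all 4 rescalings and without MYC_HCC 3, 4 or 5 or MYC_Recur 2 or 3. It was 0.74 with MYC_HCC 4 and 5 both left out (limma adjusted p = 0.204). Mxd3 overlaps Prelid1 on the opposite strand, and whether counting used strand is not given. Prelid1 was not called in any comparison.

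Mxd4 (chromosome 5, 34173883 to 34187720, minus strand), a MAX partner expressed in many differentiated tissues, had smaller changes in the direction of Myc. It read 4.7, 3.75 and 5.3 in MYC_Twist1_OFF, 10.3, 8.76 and 9.68 in MYC_Recur, 6.78, 4.34 and 3.69 in MYC_OFF, 9.59, 9.29, 11.45, 8.12 and 8.88 in MYC_Twist1_HCC, and 9.42, 9.79, 9.68, 17.9 and 8.55 in MYC_HCC. The OFF libraries lay below all others. The log2 fold change was -1.01 ± 0.23 in MYC_OFF against MYC_HCC (limma adjusted p = 0.00102), -0.91 ± 0.23 in MYC_Twist1_OFF against MYC_Twist1_HCC (limma adjusted p = 0.00341) and 0.86 ± 0.25 in MYC_Recur against MYC_OFF (limma adjusted p = 0.00901).

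Measured from the median of all genes, these 3 changes in Mxd4 were -0.63, -0.58 and 0.41. Rescaled by the median of ratios they were -0.53 (limma adjusted p = 0.0553), -0.52 (limma adjusted p = 0.0702) and 0.28 (limma adjusted p = 0.390), and none was called. The third was also not called with MYC_Recur and MYC_OFF fitted alone (limma adjusted p = 0.0540). Mxd4 has an antisense transcript on the opposite strand.

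Mxi1 (chromosome 19, 53310518 to 53375810, plus strand), also called Mxd2, a repressor of MYC function, varied least of the network in relative terms. It read 25.9, 24.3 and 30.1 in MYC_Twist1_OFF, 18.3, 18.98 and 13.4 in MYC_Recur, 34.95, 25.9 and 18.7 in MYC_OFF, 23.7, 23.9, 17.3, 20.6 and 25.4 in MYC_Twist1_HCC, and 16.1, 9.82, 15, 13.2 and 14.1 in MYC_HCC. The highest library had 3.56 times the value of the lowest, and MYC_HCC was the low group. Mxi1 was higher in MYC_OFF against MYC_HCC by 0.88 ± 0.21 (log2, limma adjusted p = 0.00174) and higher in MYC_Twist1_HCC against MYC_HCC by 0.67 ± 0.18 (limma adjusted p = 0.0385), in both cases with no overlap of libraries. On the opposite strand, Mxi1 overlaps the protein-coding gene Gm10197 and a processed transcript.

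The Mxi1 difference between the 2 groups ending in HCC was not called once any of MYC_Twist1_HCC 1, 2 or 5 or MYC_HCC 2, 3, 4 or 5 was left out, with limma adjusted p from 0.0515 to 0.0989. With MYC_HCC 4 and 5 both left out it was 0.68 (limma adjusted p = 0.0995). Max, called lower, and Mxi1, called higher, were the 2 members called in that comparison, where 3.20% of all genes were called higher and 3.23% lower. In MYC_Twist1_OFF against MYC_Twist1_HCC, Mxi1 overlapped and was not called (0.27 ± 0.21, limma adjusted p = 0.314), though it was called with the median of ratios (0.70, limma adjusted p = 0.00795). In MYC_Recur against MYC_OFF it was lower by a small margin with overlapping libraries (-0.59 ± 0.24, limma adjusted p = 0.0455), and it was not called without MYC_OFF 1 (-0.38, limma adjusted p = 0.206), MYC_OFF 2, MYC_Recur 1 or MYC_Recur 3. With MYC_Recur and MYC_OFF fitted alone, Mxi1 was also not called (limma adjusted p = 0.158). It just missed the threshold with no intensity trend (limma adjusted p = 0.0513) and with the replicate block (limma adjusted p = 0.0508). Under all 4 rescalings it stayed called and the change was larger, from -0.68 to -1.24.

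**Figure D3:**
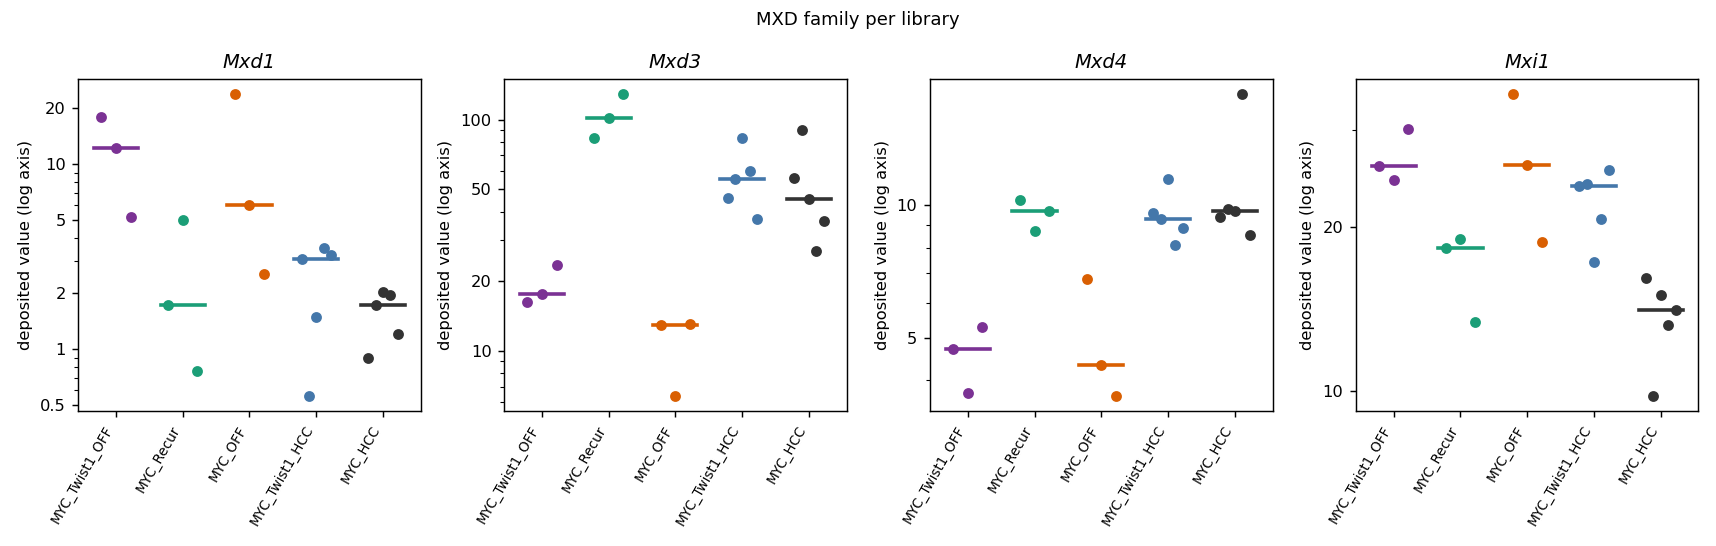
Deposited values of the 4 MXD-family genes per library on log axes, by group, with the group median as a line. Mxd3 and Mxd4 are lowest in the OFF groups, Mxd1 is highest there, and Mxi1 is lowest in MYC_HCC. MYC_HCC 4 stands at 17.9 for Mxd4.

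Mnt (chromosome 11, 74830920 to 74845725, plus strand), the MAX-bound repressor present in both resting and cycling cells and regarded as the main antagonist of MYC, had the widest range of the tested members. It read 584, 307 and 82.4 in MYC_Twist1_OFF, 16.8, 18.8 and 69.3 in MYC_Recur, 615, 67.7 and 79.8 in MYC_OFF, 22.8, 16.0, 7.92, 17.7 and 20.3 in MYC_Twist1_HCC, and 7.5, 24.0, 13.65, 5.36 and 7.34 in MYC_HCC. All 6 OFF libraries lay above all 10 libraries of the groups ending in HCC, and 3 OFF libraries at 307 to 615 stood behind the means of 324 ± 251 in MYC_Twist1_OFF and 254 ± 313 in MYC_OFF (SD, n = 3 each).

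Mnt rose by 3.86 ± 0.71 in MYC_Twist1_OFF against MYC_Twist1_HCC (log2, limma adjusted p = 0.000284), 56th from the top of 13253 genes. It rose by 3.77 ± 0.71 in MYC_OFF against MYC_HCC (limma adjusted p = 0.000207), 177th from the top. Without MYC_OFF 1 the second was 2.75 and still called. In MYC_Recur against MYC_OFF it was lower by 2.37 ± 0.79 (limma adjusted p = 0.0189), with MYC_Recur 3, at 69.3, inside the range of MYC_OFF. This was not called without MYC_OFF 1 (-1.35, limma adjusted p = 0.137), MYC_Recur 1 (-2.01, limma adjusted p = 0.0781) or MYC_Recur 2 (-2.09, limma adjusted p = 0.0655). Nor was it called with MYC_Recur and MYC_OFF fitted alone (limma adjusted p = 0.0809). Under all 4 rescalings it stayed called, from -2.46 to -3.03.

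Mga (chromosome 2, 119897228 to 119969581, plus strand), the scaffold that carries both a T-box and a MAX-binding domain, read 76.6, 50.45 and 53.45 in MYC_Twist1_OFF, 5.9, 11.7 and 26.0 in MYC_Recur, 212, 44.4 and 16.8 in MYC_OFF, 31.6, 10.15, 27.4, 37.4 and 40.25 in MYC_Twist1_HCC, and 8.04, 11.65, 15.0, 6.63 and 7.54 in MYC_HCC. All 6 OFF libraries lay above all 5 MYC_HCC libraries, though MYC_OFF 3 was close to them, and MYC_OFF 1 lay far above the rest. Mga rose by 2.43 ± 0.60 in MYC_OFF against MYC_HCC (log2, limma adjusted p = 0.00227), and by 1.46 without MYC_OFF 1, still called. In MYC_Twist1_OFF against MYC_Twist1_HCC the libraries did not overlap, but the change of 1.12 ± 0.60 was not called (limma adjusted p = 0.136). It was called after rescaling by the median of ratios (1.55, limma adjusted p = 0.0409) or the upper quartile (1.55, limma adjusted p = 0.0390), and with these groups fitted alone (limma adjusted p = 0.0424).

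Between MYC_Twist1_HCC and MYC_HCC, Mga had a log2 fold change of 1.42 ± 0.52 that missed the threshold with overlapping libraries (limma adjusted p = 0.106). It passed when the 2 groups were fitted alone (limma adjusted p = 0.0336). In MYC_Recur against MYC_OFF it was lower by 2.06 ± 0.67 (limma adjusted p = 0.0168), and it was not called without MYC_OFF 1 (-1.10, limma adjusted p = 0.126) or MYC_Recur 1 (-1.59, limma adjusted p = 0.0903). With MYC_Recur and MYC_OFF fitted alone, Mga was not called either (limma adjusted p = 0.114).

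Mlx (chromosome 11, 101087277 to 101092207, plus strand), the partner of MondoA and ChREBP, was not called in any comparison. It read 17.8, 43.1 and 21.8 in MYC_Twist1_OFF, 15, 51.9 and 41.7 in MYC_Recur, 16.05, 32.2 and 44.3 in MYC_OFF, 18.9, 29.5, 27.0, 14.9 and 12.2 in MYC_Twist1_HCC, and 21.8, 18.9, 24.3, 20.1 and 21.75 in MYC_HCC. The 3 groups of 3 libraries each spanned low and high values and overlapped both groups ending in HCC. The 95% interval of the log2 fold change was -0.42 to 1.23 in MYC_OFF against MYC_HCC and -0.44 to 1.21 in MYC_Twist1_OFF against MYC_Twist1_HCC. Mlx overlaps Psmc3ip on the opposite strand, which was lower in MYC_OFF against MYC_HCC (-0.47, limma adjusted p = 0.0455) and in MYC_Twist1_OFF against MYC_Twist1_HCC (-0.59, limma adjusted p = 0.0184).

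**Figure D4:**
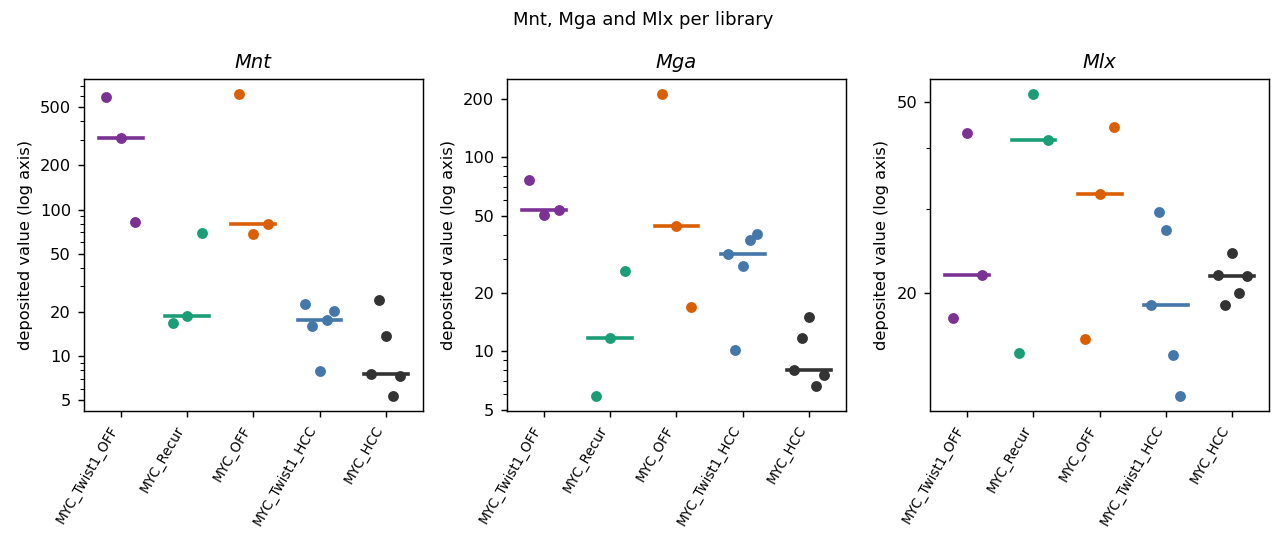
Deposited values of Mnt, Mga and Mlx per library on log axes, by group, with the group median as a line. Mnt is at least 67.7 in all 6 OFF libraries and at most 24.0 in the groups ending in HCC, Mga is highest in MYC_OFF 1 at 212, and Mlx overlaps in all groups.

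MYC_OFF 1 was the highest of all 19 libraries in Mnt, Mga, Mxd1 and Mxi1, and MYC_Twist1_OFF 1 was second in Mnt, Mga and Mxd1. In Myc these libraries read 59.8 and 32.55, the highest and the lowest of the 6 OFF libraries. No member was called between the OFF groups. In MYC_Twist1_OFF against MYC_OFF, 0.00% of all genes were called higher and 0.00755% (1 gene) lower, 330 genes had an unadjusted p under 0.05, and Mxd3 was the 1 member among them. Mxd3 read 16.2 to 23.4 in MYC_Twist1_OFF and 6.39 to 13.1 in MYC_OFF without overlap (0.81 ± 0.37, limma adjusted p = 1).

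The OFF contrast was not shown to differ between Twist1-labelled and other tumours for any member. In the interaction, 0.0226% of all genes were called higher and 0.0755% lower, and none of the 9 members was called, nor was any under 0.05 before adjustment, as 1033 genes were. The largest estimates were -1.31 ± 0.85 for Mga, 0.88 ± 0.43 for Max and -0.62 ± 0.30 for Mxi1 (limma, log2). Their intervals are wide, from -3.10 to 0.48 for Mga.

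Genes that work with the network were read from lists written with earlier results of these data known. MYC_OFF against MYC_HCC and MYC_Recur against MYC_OFF share the MYC_OFF libraries, so their opposite signs are not independent. The shares called over all genes, given above, are what each list's counts are read against. With the median of ratios, 3828 genes were called higher and 3540 lower of 13253 in MYC_OFF against MYC_HCC, 2858 and 2767 in MYC_Twist1_OFF against MYC_Twist1_HCC, and 2750 and 2986 in MYC_Recur against MYC_OFF. Among the extended network, Mlxipl (ChREBP), which drives sugar-responsive lipid synthesis with Mlx, was the 1 of 4 tested genes called. It read 7.47, 14.2 and 7.95 in MYC_Twist1_OFF, 28.0, 28.5 and 38.4 in MYC_Recur, 9.27, 6.38 and 7.64 in MYC_OFF, 10.2 to 18.8 in MYC_Twist1_HCC and 18.3 to 35.2 in MYC_HCC. Mlxipl was lower in MYC_OFF against MYC_HCC (-1.43, limma adjusted p = 0.000130) and in MYC_Twist1_OFF against MYC_Twist1_HCC (-0.71, limma adjusted p = 0.0298), and higher in MYC_Recur against MYC_OFF (1.90, limma adjusted p = 3.67e-05). The second of these calls was lost under 3 of the 4 rescalings.

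Of 14 tested targets of MLX with MondoA or ChREBP, 1 was called higher and 6 lower in MYC_OFF against MYC_HCC, 0 and 6 in MYC_Twist1_OFF against MYC_Twist1_HCC, and 6 and 0 in MYC_Recur against MYC_OFF. The lower calls stood beside 39.4% and 33.5% of all genes, and the higher calls in the third comparison beside 37.5%. Nothing particular to these targets is read from the counts. Acaca, which makes malonyl-CoA for fatty acid synthesis, fell by 2.46 and Txnip, a brake on glucose uptake, by 2.88 in MYC_OFF against MYC_HCC (log2, limma adjusted p = 1.61e-07 and 3.27e-06). The list's median log2 fold changes were -0.98, -0.70 and 0.95, and with the median of ratios the counts were 2 and 4, 2 and 3, and 3 and 2.

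Of 34 tested textbook targets activated by MYC, 1 was called higher and 23 lower in MYC_OFF against MYC_HCC, 0 and 23 in MYC_Twist1_OFF against MYC_Twist1_HCC, and 23 and 0 in MYC_Recur against MYC_OFF, with median log2 fold changes of -1.22, -1.13 and 1.43. Over all genes, 39.4% and 33.5% were called lower in the OFF comparisons and 37.5% higher in the third. With the median of ratios the counts were 4 and 15, 3 and 15, and 14 and 4. Nop58, a core protein of box C/D snoRNPs, read 23.7, 29.8 and 34.6 in MYC_Twist1_OFF, 165, 168 and 133 in MYC_Recur, 43.4, 29.1 and 27.2 in MYC_OFF, 94.2 to 157 in MYC_Twist1_HCC and 126 to 223 in MYC_HCC, with the OFF libraries below all others. Tfrc, the transferrin receptor, fell by 2.01 in MYC_OFF against MYC_HCC (log2, limma adjusted p = 1.79e-06), while Gnl3, a nucleolar GTPase, rose by 0.74 (limma adjusted p = 0.0308). Eif2s1, a subunit of translation initiation factor eIF2, fell by 1.27 in MYC_Twist1_OFF against MYC_Twist1_HCC (limma adjusted p = 5.66e-05).

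Of 8 tested MYC-repressed targets, 0 were called higher and 2 lower in MYC_OFF against MYC_HCC and likewise in MYC_Twist1_OFF against MYC_Twist1_HCC. These were Ndrg1, a stress-responsive gene (-1.34 and -0.94, limma adjusted p = 0.000294 and 0.00714), and Cdkn1b, the cell-cycle inhibitor p27 (-0.79 and -1.24, limma adjusted p = 0.0414 and 0.00433). The Cdkn1b call was lost under 3 of the 4 rescalings in the first comparison and under 2 in the second, as was that of Ndrg1 in the second. With the median of ratios the list had 1 gene higher and 1 lower in the first comparison and 1 and 0 in the second. In MYC_Recur against MYC_OFF, Ndrg1 was the 1 gene called, higher by 1.44 (limma adjusted p = 0.000570). The list's median log2 fold changes in the 3 comparisons were -0.53, -0.25 and 0.32. The 2 lower calls of 8 stood beside 39.4% and 33.5% of all genes, and the 1 higher call beside 37.5%. Nothing particular to these targets is read from them.

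Coactivators are the proteins through which MYC opens chromatin. Of 17 tested MYC coactivators, 1 was called higher and 8 lower in MYC_OFF against MYC_HCC, 1 and 6 in MYC_Twist1_OFF against MYC_Twist1_HCC, and 6 and 1 in MYC_Recur against MYC_OFF, with median log2 fold changes of -0.61, -0.43 and 0.54. The lower calls, 8 and 6 of 17, stood beside 39.4% and 33.5% of all genes, and nothing particular to the coactivators is read from them. Rescaling by the median of ratios gave 3 and 5, 2 and 3, and 3 and 3. Ruvbl2, an ATPase of the TIP60 and INO80 remodellers, fell by 2.47 in MYC_OFF against MYC_HCC and by 1.83 in MYC_Twist1_OFF against MYC_Twist1_HCC (log2, limma adjusted p = 9.08e-07 and 4.32e-05). Crebbp, a histone acetyltransferase, went the other way, higher by 1.70 and 1.71 (limma adjusted p = 0.000418 and 0.000638), and in MYC_Recur against MYC_OFF it fell by 2.31 (limma adjusted p = 8.94e-05).

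SIN3 and HDAC corepressors are the proteins through which MXD proteins and MNT act. Of 17 tested, 0 were called higher and 10 lower in MYC_OFF against MYC_HCC, 1 and 8 in MYC_Twist1_OFF against MYC_Twist1_HCC, and 11 and 1 in MYC_Recur against MYC_OFF, with median log2 fold changes of -0.82, -0.82 and 1.11. The lower calls stood beside 39.4% and 33.5% of all genes, and the 11 higher calls beside 37.5%. With the median of ratios the counts were 2 and 7, 1 and 5, and 6 and 2. Sin3b, a scaffold of the complex, read 5.78, 6.47 and 5.44 in MYC_Twist1_OFF, 23.6, 17.7 and 20.2 in MYC_Recur, 8.88, 3.9 and 4.07 in MYC_OFF, 15.5 to 21.2 in MYC_Twist1_HCC and 15.7 to 29.8 in MYC_HCC, the OFF libraries below all others. Rbbp7, a histone-binding subunit, fell by 2.23 in MYC_OFF against MYC_HCC and by 1.77 in MYC_Twist1_OFF against MYC_Twist1_HCC (log2, limma adjusted p = 9.51e-07 and 2.42e-05), and Suds3, another subunit, was higher by 0.64 in the second (limma adjusted p = 0.0278).

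Partners of MGA in the Polycomb complex PRC1.6 went both ways. Of 10 tested, 3 were called higher and 2 lower in MYC_OFF against MYC_HCC, and 2 and 2 both in MYC_Twist1_OFF against MYC_Twist1_HCC and in MYC_Recur against MYC_OFF. The median log2 fold changes were 0.04, -0.19 and -0.01. Shares over all genes were 18.9% higher and 39.4% lower, 13.1% and 33.5%, and 37.5% and 12.0%. After rescaling by the median of ratios the counts were 4 and 1, 2 and 2, and 1 and 3. E2f6, a repressor of the E2F family, read 42.5, 39.0 and 53.35 in MYC_Twist1_OFF, 2.85, 1.97 and 5.84 in MYC_Recur, 35.4, 59.9 and 64.2 in MYC_OFF, 11.5 to 28.25 in MYC_Twist1_HCC and 4.42 to 11.9 in MYC_HCC, with the MYC_Recur libraries within or below the range of MYC_HCC. Rnf2, the ubiquitin ligase RING1B at the core of the complex, ran the other way, at 2.24, 1.3 and 4.43 in MYC_Twist1_OFF, 48.7, 33.7 and 41.4 in MYC_Recur, 3.99, 3.49 and 1.35 in MYC_OFF, 18.4 to 31.0 in MYC_Twist1_HCC and 12.6 to 47.4 in MYC_HCC. The log2 fold changes in MYC_OFF against MYC_HCC were 2.71 for E2f6 and -2.84 for Rnf2 (limma adjusted p = 3.63e-06 and 5.48e-06), and those in MYC_Recur against MYC_OFF were -3.62 and 3.48 (limma adjusted p = 2.03e-06 and 4.94e-06). Between MYC_Twist1_HCC and MYC_HCC, E2f6 was higher by 1.35 and Yaf2, another PRC1 subunit, by 1.40 (limma adjusted p = 0.0130 and 0.0124).

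Of 16 tested genes for turnover of the MYC protein, 2 were called higher and 8 lower in MYC_OFF against MYC_HCC, 1 and 8 in MYC_Twist1_OFF against MYC_Twist1_HCC, and 9 and 1 in MYC_Recur against MYC_OFF, and with the median of ratios 4 and 6, 4 and 5, and 3 and 3. As deposited, the lower calls stood beside 39.4% and 33.5% of all genes, and the 9 higher calls beside 37.5%. The median log2 fold changes as deposited were -0.94, -0.76 and 0.995. Huwe1, a ubiquitin ligase that acts on MYC, read 2.45, 5.18 and 2.28 in MYC_Twist1_OFF, 38.6, 28.7 and 57.1 in MYC_Recur, 3.65, 3.53 and 2.49 in MYC_OFF, 9.47 to 26.2 in MYC_Twist1_HCC and 24.6 to 30.01 in MYC_HCC. Huwe1 fell by 2.72 in MYC_OFF against MYC_HCC and by 2.22 in MYC_Twist1_OFF against MYC_Twist1_HCC (log2, limma adjusted p = 5.66e-07 and 1.16e-05). Gsk3b, a kinase that marks MYC for degradation, fell by 2.27 and Usp28, a deubiquitinase that protects MYC, rose by 2.57 in MYC_OFF against MYC_HCC (log2, limma adjusted p = 9.60e-07 and 1.75e-05). Usp28 was also higher in MYC_Twist1_HCC against MYC_HCC, by 1.13 (limma adjusted p = 0.0465).

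Among 9 other E-box factors of the same fold, 3 were called higher and 4 lower in MYC_OFF against MYC_HCC, 2 and 3 in MYC_Twist1_OFF against MYC_Twist1_HCC, and 5 and 1 in MYC_Recur against MYC_OFF. Their median log2 fold changes were -0.48, -0.69 and 1.02. Beside these counts, 39.4% and 33.5% of all genes were called lower in the OFF comparisons and 37.5% higher in the third. With the median of ratios the counts were 3 and 3, 3 and 3, and 3 and 4. Tfap4, an E-box factor known as a MYC target, read 1916, 1357 and 488 in MYC_Twist1_OFF, 0.16, 0.09 and 0.17 in MYC_Recur, 739, 3603 and 286 in MYC_OFF, 0.39 to 15.85 in MYC_Twist1_HCC and 3.31 to 19.96 in MYC_HCC. The 6 OFF libraries lay above all others, with log2 fold changes of 6.45 in MYC_OFF against MYC_HCC, 7.91 in MYC_Twist1_OFF against MYC_Twist1_HCC and -9.65 in MYC_Recur against MYC_OFF (limma adjusted p = 1.81e-06, 1.01e-06 and 5.33e-07). Usf2, which binds the same E-box as MYC, fell by 1.56 in MYC_Twist1_OFF against MYC_Twist1_HCC and rose by 1.66 in MYC_Recur against MYC_OFF (log2, limma adjusted p = 1.90e-05 and 2.29e-05).

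**Figure D5:**
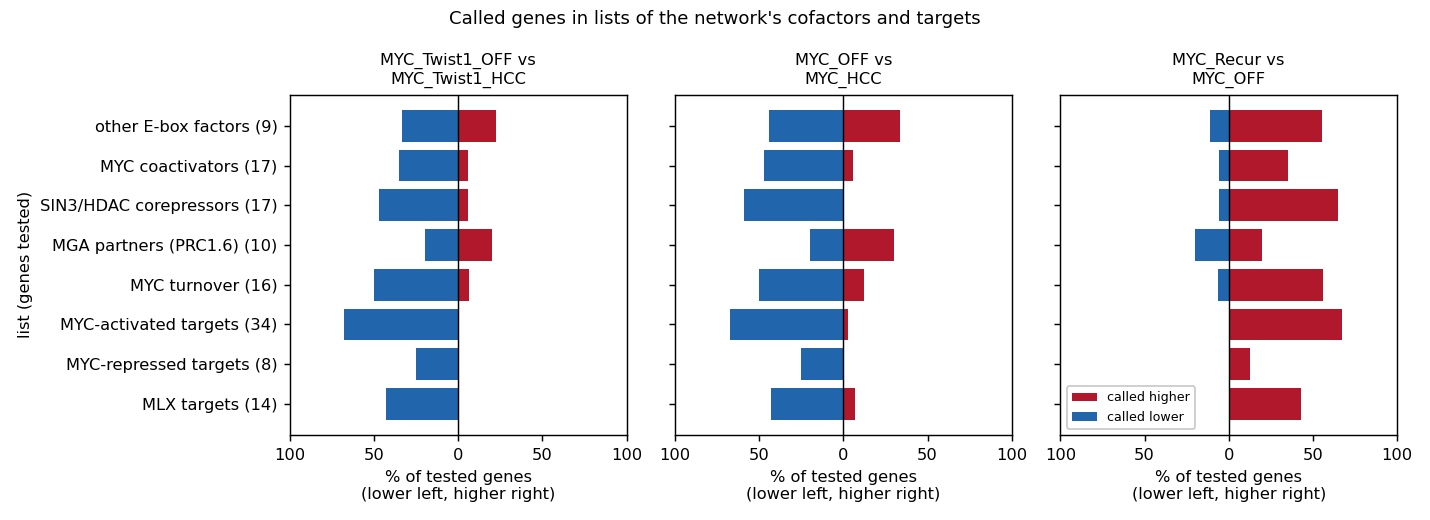
Share of the tested genes of each list that were called lower (bars to the left) or higher (bars to the right) in 3 comparisons, in percent. Of 34 MYC-activated targets 23 are called lower in each OFF comparison and 23 higher in MYC_Recur against MYC_OFF, and MGA partners are called in both directions. The shares over all tested genes are not drawn. They were 39.4% lower in MYC_OFF against MYC_HCC, 33.5% lower in MYC_Twist1_OFF against MYC_Twist1_HCC and 37.5% higher in MYC_Recur against MYC_OFF. Calls are on the values as deposited, without rescaling.

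The genes whose log2(value + 1) ran most like each member over the 19 libraries were found by Pearson's r, as a description over libraries that share their groups. For Myc they were Nop58, Snrnp200 and Ran, each at r = 0.99, and for Max they were Dnm1l and Cfl1 at 0.98 and Cops7a at 0.97. For Mxd1 they were Mynn at 0.97 and Palld and Rab8b at 0.96, for Mxd3 Uchl5, Ddx41 and Ahsa2 at 0.95, and for Mxd4 Phyh at 0.98 and Fahd1 and Slc25a42 at 0.95. For Mnt they were Apc and Sgk2 at 0.99 and Mblac1 at 0.97, for Mga Rnf151 at 0.93 and Ccdc112 and Zfp383 at 0.91, and for Mxi1 Amz1 and Dscc1 at 0.89 and Rab3gap2 at 0.88. Mlx had no near match, with Chmp6 at 0.72 first.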

How the data were processed

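RNA sequencing of 19 mouse liver tumours was deposited as 1 table of normalized signal values with 2 decimals. Per the submitters' processing notes the authors used Trimmomatic, STAR, Picard, featureCounts and DESeq2 with the mm10 build; how the deposited signal was scaled, whether counting used strand, and the depth have no source here. A precision from counting error can therefore not be given, and precision rests on the spread between libraries, whose summed values ran from 507868 to 690310. Of 19511 rows, 25 with a bare number for a name were left out. Nothing in the labels ties the libraries of a group to different animals; the p-values therefore rest on between-library spread alone, which may be technical.

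Genes with a value of at least 1 in at least 3 libraries entered a limma fit (version 3.58.1, R 4.3.3) on log2(value + 1), which understates the change of low genes. One fit of 5 group means with an intensity trend gave 7 comparisons, including the interaction, each with Benjamini-Hochberg adjustment over all 13253 genes and a call at adjusted p under 0.05. Every member was named; list genes were named from the up to 4 called genes with the smallest p in a comparison plus 1 called the other way, and the 3 genes most like each member by Pearson's r, predicted genes left out. The members and lists were chosen with earlier results of these data known. Alternatives were 4 rescalings, pseudocounts of 0.1 and 5, no filter, a filter at 5, no trend, a replicate block, fits of the groups compared alone, and leaving out libraries. Gene positions are from GENCODE on GRCm38, the assembly of mm10, and promoter sequences are from RefSeq on GRCm38.p6.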

Additional observations from a re-analysis of the deposited data

Results flagged for a closer look

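In MYC_HCC, library 4 stood apart from the other 4 libraries of its group in 2 of the network genes. Mxd4 read 17.9 in it and 8.55 to 9.79 in the others, and Mycn read 0.2 in it and 0.03 to 0.06 in the others. Dixon's test was applied to each of the 10 genes in both groups of 5 libraries, 20 in all, of which chance flags about 1 in 20. The Mycn values are all too low to be read as a difference in level.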

How the results depend on the processing

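Of 1314 values of members under alternatives, 1253 kept their call or lack of one, 45 lost the call, 16 gained it and 0 reversed a called direction. Among the 1253, 66 differed in sign with no call in either setting. Members called in MYC_Recur against MYC_HCC were 0 in place of 1 under all 4 rescalings, with no filter, with the replicate block, with the groups fitted alone and without MYC_HCC 4 and 5 (0 to 1 with single libraries left out). In MYC_Twist1_HCC against MYC_HCC they were 1 in place of 2 with equal sums and without MYC_HCC 4 and 5 (1 to 2), and in MYC_Recur against MYC_OFF 3 in place of 7 with the groups alone (4 to 8). Single libraries left out gave 7 to 8 in MYC_OFF against MYC_HCC and 5 to 6 in MYC_Twist1_OFF against MYC_Twist1_HCC.

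Over all genes, calls in MYC_Twist1_HCC against MYC_HCC were 352 in place of 852 without MYC_HCC 4 and 5 (389 to 893 with single libraries left out), and in MYC_Recur against MYC_HCC 835 in place of 1435 (819 to 1314). In MYC_Twist1_OFF against MYC_OFF they were 0 with a pseudocount of 0.1 and with the groups alone, 2 with a pseudocount of 5 and 3 with no filter, in place of 1 (0 to 21). In the interaction they were 7 with a pseudocount of 0.1, 4 with no filter, 8 with the groups alone and 5 without MYC_HCC 4 and 5, in place of 13 (1 to 49). The ranges with single libraries left out were 6906 to 8059 around 7732 in MYC_OFF against MYC_HCC, 4634 to 6053 beside 6178 in MYC_Twist1_OFF against MYC_Twist1_HCC and 5587 to 6359 beside 6549 in MYC_Recur against MYC_OFF. The cause was not tested.

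With the replicate block, calls over all genes were 940 in MYC_Twist1_HCC against MYC_HCC, 7553 in MYC_OFF against MYC_HCC, 6122 in MYC_Twist1_OFF against MYC_Twist1_HCC, 6637 in MYC_Recur against MYC_OFF, 936 in MYC_Recur against MYC_HCC, 0 in MYC_Twist1_OFF against MYC_OFF and 14 in the interaction. Deviations of same-numbered libraries correlated at -0.21 to 0.38, over 0.1 in 10 of 32 pairs. Differently numbered libraries correlated at -0.45 to 0.28. These values do not settle whether same-numbered libraries were paired, which the labels do not state. The depth is unknown, and Mycn and low Mxd1 values are the ones it limits most.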
